A study of Drosophila melanogaster with 3 samples.

Results

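The regions described here are the 492 intergenic peaks among the 7137 peaks of CG2116-eGFP that passed the irreproducible discovery rate (IDR) procedure on the 6 main chromosome arms of Drosophila melanogaster (2L, 2R, 3L, 3R, 4 and X; build dm6). IDR keeps peaks whose rank is repeatable between replicates. A peak was intergenic when its summit, the position of highest enrichment within it, lay more than 500 bp from every annotated transcription start site (TSS), coding or noncoding, and inside no annotated transcript. Transposable elements were left out of the annotation. The intergenic peaks made up 6.89% of the IDR list, beside 5166 promoter peaks within 500 bp of a coding TSS (72.4%), 1342 intragenic peaks (18.8%) and 137 peaks at noncoding starts (1.92%). The study used chromatin immunoprecipitation and sequencing (ChIP-seq) on whole embryos aged 0 to 24 h, of both sexes, from a transgenic line that stably expresses CG2116 with eGFP at its C terminus. The antibody recognised GFP, and chromatin was broken by sonication. All 3 libraries, replicates 1, 2 and 4, belong to this single group, and no peak list of an untagged line was used here. A whole embryo of this age span mixes many cell types, so weak binding in many cells and strong binding in few cannot be told apart.

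Intergenic binding sites in the fly genome include enhancers, insulators and transcription starts that the annotation does not hold. Insulator proteins such as CTCF and su(Hw) bind DNA through zinc fingers and recruit Cp190, a cofactor tied to the borders of chromatin domains. The DNA replication-related element (DRE) is bound by Dref and, through its CGATA unit, by BEAF-32, and it is best known from the promoters of housekeeping genes. No known function of CG2116 is assumed in what follows.

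The sequences of the 2 strongest intergenic peaks are shown because they carry the largest signals among the 492. Each is the 201 bases around the summit on the plus strand of dm6, from the RefSeq copy of the assembly, and is named by the genes on either side. Capitals mark CGATA, GCAACNCT and AGGGCTG on either strand. Both sequences hold CGATA. The one beside CG3505 also holds GCAACNCT, and the one beside Sox102F holds AGGGCTG.
l(3)L1231 and CG3505, chr3R:14656843-14657043, plus strand: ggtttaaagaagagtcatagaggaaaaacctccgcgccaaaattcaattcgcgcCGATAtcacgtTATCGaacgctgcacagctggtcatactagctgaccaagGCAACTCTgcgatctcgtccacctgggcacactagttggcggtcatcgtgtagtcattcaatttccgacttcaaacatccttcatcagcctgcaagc
Sox102F and fd102C, chr4:834937-835137, plus strand: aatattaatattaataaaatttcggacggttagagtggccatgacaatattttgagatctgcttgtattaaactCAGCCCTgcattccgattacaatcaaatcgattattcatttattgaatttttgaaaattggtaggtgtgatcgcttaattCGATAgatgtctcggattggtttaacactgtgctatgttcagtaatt

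The sequences around the CTCF core AGNTGGCGC are shown for 6 intergenic peaks because this motif had the highest share in intergenic peaks relative to promoter peaks after su(Hw). The 6 are examples and do not include the strongest peak with the core, between jp and lncRNA:CR44149. Most of them have A as the variable base, which was G in 13 of the 37 copies at intergenic peaks. Each line holds the motif in capitals with 16 bases on either side and is read in the direction of the motif.
CHES-1-like and CG15478, chrX:7710950-7710990, plus strand: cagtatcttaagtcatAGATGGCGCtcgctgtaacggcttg
Sid and snu, chr3R:28672405-28672445, minus strand: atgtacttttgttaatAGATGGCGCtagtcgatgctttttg
Cad89D and Gr89a, chr3R:16497507-16497547, minus strand: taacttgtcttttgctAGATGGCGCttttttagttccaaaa
Sox21a and Sox21b, chr3L:14111628-14111668, plus strand: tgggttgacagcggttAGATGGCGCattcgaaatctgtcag
wgn and Rip11, chrX:18635438-18635478, plus strand: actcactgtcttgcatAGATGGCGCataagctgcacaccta
zfh1 and wts, chr3R:30789465-30789505, plus strand: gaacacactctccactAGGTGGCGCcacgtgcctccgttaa

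The same is shown for 3 peaks with the su(Hw) core GCATACTTT and for 3 peaks with the DRE, TATCGATA, again with the motif in capitals. In the stretch beside RpL17 the capitals run over 2 overlapping copies of the DRE.
CG11349 and CG7465, chr3L:4475106-4475146, plus strand: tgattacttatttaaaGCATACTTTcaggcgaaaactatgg
CG17570 and CG12617, chr2L:20287458-20287498, plus strand: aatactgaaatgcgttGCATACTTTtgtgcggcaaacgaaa
kni and cmpy, chr3L:20711641-20711681, plus strand: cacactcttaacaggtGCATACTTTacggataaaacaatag
CG7907 and CheB93a, chr3R:21406897-21406936, plus strand: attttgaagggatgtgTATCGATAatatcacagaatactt
CG3168 and RpL17, chrX:6741255-6741294, plus strand: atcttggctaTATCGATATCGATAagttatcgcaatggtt
Cpr65Ec and form3, chr3L:7094257-7094296, plus strand: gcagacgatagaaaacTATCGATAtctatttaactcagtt

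The deposited signal of a peak is the authors' enrichment value, whose scale depends on the library. It was therefore divided, in each replicate, by the median over the IDR peaks matched there, which gives a relative signal of 1 for the median IDR peak. An IDR peak was matched to the nearest replicate summit within 100 bp. Of the 492 intergenic peaks, 433 had a value in all 3 replicates. The replicate numbers are the only statement that the libraries are separate, so their spread may be in part technical. Each replicate list and the pooled list held 30000 peaks. The pooled peaks that overlapped no IDR peak, called lower-ranked here, numbered 21020, of which 4623 were intergenic by the same rule. They serve as the background for the intergenic IDR peaks.

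The 500 bp limit cut through a gradient. The share in the IDR list was taken among IDR and lower-ranked summits outside every transcript. Other pooled peaks that overlapped an IDR peak were thus left out. This share was 25% at 501 to 600 bp from a TSS and 15.1% at 601 to 800 bp, against 27% at 401 to 500 bp and 79.9% within 100 bp. It was 10.1% at 801 to 1000 bp and 6.38% at 5001 to 10000 bp. The 5 intergenic peaks nearest to the limit lay at 502 or 503 bp, between comm2 and CG42571, GstE11 and CG43066, eEF2 and nolo, Dyro and CG7573, and Irk3 and CG10348. Their pooled signals ran from 149.0 to 394.9. The 5 nearest peaks on the other side lay at 482 to 489 bp, between CG42269 and CG6602, sff and Pka-C3, lncRNA:CR44682 and CG13251, lncRNA:CR44184 and CG15172, and bam and RpS27. Their pooled signals ran from 185.8 to 496.1. The signals on both sides of the limit thus cover much the same range.

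Intergenic peaks were weaker than promoter peaks in every replicate and close to intragenic peaks. Their median relative signal was 0.727, 0.666 and 0.771 in replicates 1, 2 and 4, against 1.17, 1.18 and 1.14 for promoter peaks. The difference from promoter peaks was -0.69 ± 0.13 on the log2 scale (SD, n = 3; exact two-sided sign-flip test, p = 0.25, the smallest this test allows with 3 libraries). In the stronger 50% of the IDR list it was -0.31. Intragenic peaks had medians of 0.682, 0.649 and 0.775. The difference of intergenic from intragenic peaks was 0.04 ± 0.05 on the log2 scale (n = 3; exact p = 0.5) and changed sign between replicates. Only 153 intergenic peaks (31.1%) had a pooled signal above the median of the IDR list. The strongest 100 IDR peaks held 2 intergenic ones and the strongest 1000 held 23. Intergenic peaks added up to 3.72% of the pooled signal summed over the list, and 13.1% of their sum came from the 2 strongest.

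Recovery of intergenic peaks varied between replicates. It was counted against the 7137 strongest summits of each replicate's own list, with a match within 100 bp. Intergenic peaks were recovered at 76.4%, 63.8% and 85.8% in replicates 1, 2 and 4, against 88.6%, 85.9% and 86.1% of promoter peaks. The gap was widest in replicate 2, at -22.0 percentage points, and -0.35 in replicate 4 (mean -11.5 ± 10.9 percentage points, n = 3; exact sign-flip p = 0.25). Without replicate 2 its mean was -6.28 points. Over the 3 replicates the gap averaged -28.2 points against 50% as many summits of each replicate, 0.26 points when whole replicate lists were matched, and 0.0214 in the stronger 50% of the IDR list. Intragenic peaks were recovered at 73.3%, 61.9% and 88.2%, so that the gap of intergenic from intragenic peaks averaged 0.848 points (± 2.92, n = 3; exact sign-flip p = 0.75). Against 50% as many summits it averaged 5.24 points and was positive in every replicate, between 4.29 and 6.64. In all 3 replicates together, 242 of the 492 intergenic peaks were recovered (49.2%, exact Clopper-Pearson 95% interval 44.7 to 53.7%). The share over the whole IDR list was 64.5%. Recovery fell with pooled signal. Of the 123 strongest intergenic peaks 93.5% were found in all replicates, and of the next 123 it was 74.0%. It then fell to 26.8%, and to 2.44% of the weakest 123. This fall is in part built in. Recovery asks for a place among each replicate's strongest summits, and the pooled signal comes from the same replicates. With the whole replicate lists, 96.3%, 93.1% and 97.2% of intergenic peaks had a summit within 100 bp. Such intervals, here and later, cover counting error only.

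**Figure D1:**
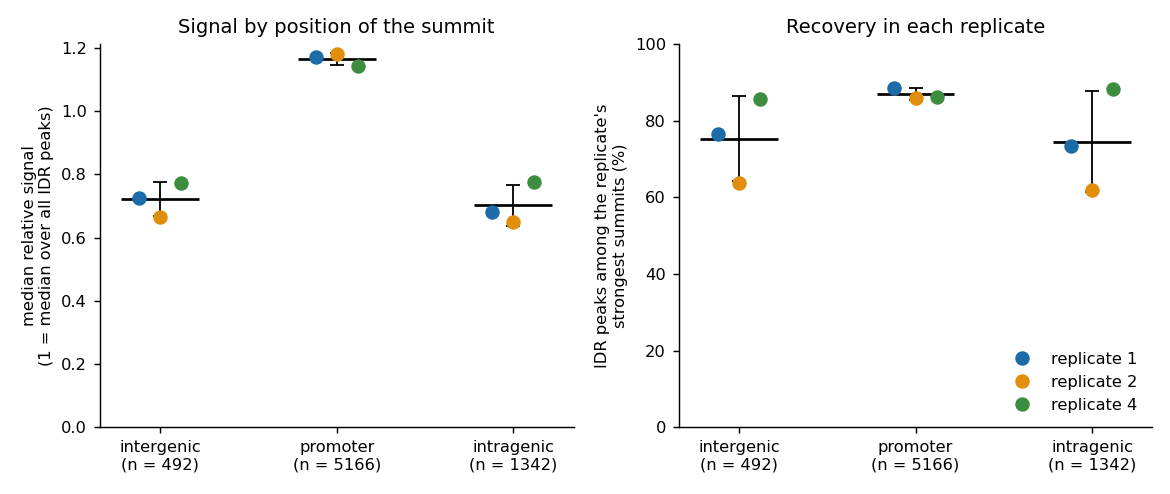
Left, median relative signal of intergenic, promoter and intragenic IDR peaks in each replicate (points), with the mean and SD over 3 replicates (black). Right, the percentage of each class found among the 7137 strongest summits of each replicate. Intergenic peaks lie near 0.7 in all replicates, below promoter peaks, and their recovery is lowest in replicate 2.

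The 2 strongest intergenic peaks stood far above the rest in every library. The peak between the divergent genes l(3)L1231 and CG3505 (chr3R:14656376-14657385) had relative signals of 48.4, 40.4 and 47.1 in replicates 1, 2 and 4 and ranked 29 in the whole IDR list. Its summit lay 504 bp from the start of CG3505, just beyond the limit. The peak between Sox102F and fd102C (chr4:834598-835738) had relative signals of 27.7, 26.7 and 29.9. Sox102F encodes a Sox family transcription factor and fd102C a forkhead one. A weaker peak in the same interval had 1.86 and 1.53 in replicates 1 and 4 and no summit within 100 bp in replicate 2.

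The next ranks included peaks with a metabolic, ribosomal or cytoskeletal gene on 1 side, which was not always the nearer gene. Between Gbeta13F, a G protein beta subunit gene, and Gapdh2, which encodes a glycolytic enzyme, the list holds 2 summits 203 bp apart. The stronger had relative signals of 10.5, 11.3 and 9.45, and the weaker 3.12, 5.94 and 2.56. The peak between the splicing factor gene Srrm1 and the ribosomal protein gene RpS4 lay 83 bp from Srrm1 and 697 bp from RpS4. It had relative signals of 6.71 in replicate 1 and 9.67 in replicate 4. It was the only one of the 20 strongest with no matched summit in a replicate, here replicate 2. The peak between sn, which encodes the actin bundler fascin, and Tbh, a gene of octopamine synthesis, had 6.41, 6.25 and 6.02, close to identical in the 3 libraries. Those values belong to a summit 138 bp beyond the 3' end of sn and 8958 bp from the nearest TSS.

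Further down the 20 strongest, the peak between CG5895 and Diap1, an inhibitor of apoptosis, had relative signals of 4.71, 4.25 and 4.77. Its summit lay 166 bp from CG5895 and 1017 bp from Diap1. The peak between CG1941 and Dgat2, a gene of triglyceride synthesis, had 4.44, 3.46 and 6.26. The peak upstream of psq, a gene for a nuclear BTB-domain protein, had 2.86, 3.01 and 3.73. The peak between blw, which encodes an ATP synthase subunit, and the cyclin gene CycB had 2.46, 2.32 and 3.38. Over the 20 strongest the median coefficient of variation between replicates was 12.3%, and the largest was 46.7%, at the weaker Gapdh2 summit. Of these 20, 11 lay within 1000 bp of a TSS (55%), against 98 of the 472 weaker intergenic peaks (20.8%). At the other end of the list, the 3 weakest had pooled signals of 144.4 to 144.6 and relative signals between 0.354 and 0.633.

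The CTCF core was more frequent at intergenic peaks than in every set beside them. Within 100 bp of the summit, 27 of 492 intergenic peaks held AGNTGGCGC on either strand (5.49%, exact 95% interval 3.65 to 7.88%). The share was 1.61% of promoter peaks, 2.38% of intragenic peaks and 1.23% of lower-ranked intergenic peaks (57 of 4623). Over all IDR peaks it was 2.03%, and over 180368 tiles of 201 bp that cover the intergenic sequence of the 6 arms it was 0.463%. In each replicate's own list, the strongest intergenic summits held the core at 5.62%, 4.52% and 4.97%, against 0.780%, 0.798% and 1.23% of that list's weaker intergenic summits. The difference was 4.10 ± 0.641 percentage points (n = 3, the same direction in 3 of 3; exact sign-flip p = 0.25, Benjamini-Hochberg adjusted over 14 motifs 0.292). With 3 libraries this test cannot give a p below 0.25 for any motif.

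Copies of the CTCF core often came in pairs. Of the 27 intergenic peaks with the core, 10 held 2 copies (37%), against 5 of 83 promoter peaks with it (6.02%) and 3 of 57 lower-ranked intergenic peaks (5.26%). In 6 of the 10 both copies were on the same strand. The strongest of these lay between CHES-1-like, a forkhead gene, and CG15478, with copies 46 bp apart and relative signals of 2.60, 2.26 and 2.25. The peak between lncRNA:CR45624 and sbr, which encodes an mRNA export factor, had copies 51 bp apart and relative signals of 1.32, 1.18 and 1.17. The peak between the Sox genes Sox21a and Sox21b had copies on opposite strands 111 bp apart and relative signals of 0.924, 1.05 and 1.04. The peak between the cadherin genes CadN and CadN2 had copies 73 bp apart and weaker signals of 0.655, 0.581 and 0.617. Counting these pairs was decided after the data were seen.

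The variable base of the core was A in 21 copies and G in 13 of the 37 copies at intergenic peaks, T in 2 and C in 1. At lower-ranked intergenic peaks A had 26, G 16, T 10 and C 9 copies. The core lay close to the summit: 27 of 42 copies within 250 bp of an intergenic summit were within 50 bp of it (64.3%), against 39 of 124 at lower-ranked peaks (31.5%). Holding the core went with little difference in signal: the median relative signal was 0.789, 0.720 and 0.869 with it, against 0.724, 0.663 and 0.769 without it. A match describes the sequence and does not show that CTCF is bound there.

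The su(Hw) core GCATACTTT was found at 15 intergenic peaks (3.05%, interval 1.72 to 4.98%), against 0.445% of promoter peaks, 0.447% of intragenic peaks and 1.47% of lower-ranked intergenic peaks. Its share over the whole IDR list was 0.631%, and in the intergenic tiles 0.535%. The strongest intergenic summits of the replicates' own lists held it at 2.08%, 2.51% and 2.95%, against 1.25%, 1.49% and 1.46% of their weaker ones (difference 1.11 ± 0.335 percentage points, n = 3; exact p = 0.25). Among the 15 were the peak between CG11349 and CG7465, with relative signals of 2.17, 1.49 and 2.42, and the peak between kni, a gap gene, and cmpy, with 0.787, 0.708 and 0.780. Another lay in the bithorax complex between Glut3 and lncRNA:CR45750 and had 1.01, 0.417 and 0.909. CTCF and su(Hw) cores shared 1 peak.

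The DRE, TATCGATA, showed the opposite order between intergenic and promoter peaks. It was found at 22 intergenic peaks (4.47%, interval 2.82 to 6.69%), against 16.3% of promoter peaks, 1.64% of intragenic peaks and 0.779% of lower-ranked intergenic peaks. Over all IDR peaks the share was 12.5%. The DRE was most frequent among the strongest intergenic peaks: 11 of the strongest 123 held it (8.94%), and 4, 4 and 3 of each following 123. Median relative signals were 1.57, 1.49 and 1.32 with a DRE, against 0.713, 0.662 and 0.765 without one. The peak between CG7907 and CheB93a, a gene of a chemosensory protein family, had a DRE centred at -10.5 bp from its summit and relative signals of 5.28, 5.77 and 5.97. The peak 225 bp beyond the 3' end of the ribosomal protein gene RpL17 held 2 overlapping copies and 5 CGATA units and had 2.19, 2.29 and 2.56. The strongest intergenic summits of the replicates' own lists held the DRE at 4.38%, 4.02% and 4.42%, against 0.534%, 0.714% and 0.754% of the weaker ones (3.60 ± 0.273 percentage points, n = 3; exact p = 0.25).

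CGATA, the M1BP and ZIPIC motifs and GCAACNCT were also less frequent at intergenic than at promoter peaks. Their shares were higher than those of lower-ranked intergenic peaks. The CGATA unit alone, which every DRE contains, was found at 34.3% of intergenic peaks, 53.9% of promoter peaks, 46.6% of all IDR peaks and 19.3% of lower-ranked intergenic peaks. The M1BP motif GGTCACACT was at 4 intergenic peaks (0.813%), against 7.84% of promoter peaks and 5.79% of all IDR peaks. Lower-ranked intergenic peaks held it at 0.216%. One of the 4, between the forkhead segmentation genes slp1 and slp2, held 2 copies. The ZIPIC motif AGGGCTG was at 3.05% of intergenic and 5.17% of promoter peaks, and at 4.16% of all IDR peaks. Its share of lower-ranked intergenic peaks was 1.15%. The 8-mer GCAACNCT, chosen on these data in an earlier analysis of all peaks, was at 4.88% of intergenic peaks, 8.77% of promoter peaks and 7.73% of all. This 8-mer was at 2.88% of lower-ranked intergenic peaks. It was at 4 of the 20 strongest intergenic peaks.

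The E-box CAGCTG was also less frequent at intergenic peaks than over the whole list. It was at 6.30% of intergenic peaks, against 15.8% of promoter peaks, 13.5% of all IDR peaks and 7.59% of lower-ranked intergenic ones. Intragenic peaks held it at 8.05%, inside the exact 95% interval of the intergenic share. For the other motifs, values for intergenic and all IDR peaks were 3.25% and 3.17% for the Trl and Clamp motif GAGAGAG, 29.9% and 27.1% for the Pho core GCCAT, and 34.8% and 32.9% for TATAAA. At promoter peaks GAGAGAG was at 2.65% and TATAAA at 32.0%, both inside the exact 95% intervals of the intergenic shares. Intragenic peaks held GAGAGAG at 4.77% and TATAAA at 35.8%, also inside those intervals, and GCCAT at 25.8%. At lower-ranked intergenic peaks GAGAGAG was at 2.10%, GCCAT at 34.5% and TATAAA at 26.8%. That last share lies below the exact 95% interval of TATAAA at intergenic peaks, 30.5 to 39.1%. Values for intergenic and all IDR peaks were 0.813% and 0.715% for the Zelda motif CAGGTAG, and 3.25% and 4.19% for the AP-1 motif TGANTCA. At intragenic peaks CAGGTAG was at 0.820% and TGANTCA at 5.74%. The insv and Elba motif CCAATTGG was at 0 of 492 intergenic peaks, against 0.673% of all IDR peaks and 0.745% of intragenic peaks. A count of 0 allows a share of up to 0.61% by the limit of 3 counts and 0.747% by the exact 95% interval, which lie on either side of the share over all IDR peaks. Of the 14 motifs, 10 had a higher share at intergenic peaks than at lower-ranked intergenic peaks. None of the 14 motifs was found at 111 of the intergenic peaks.

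**Figure D2:**
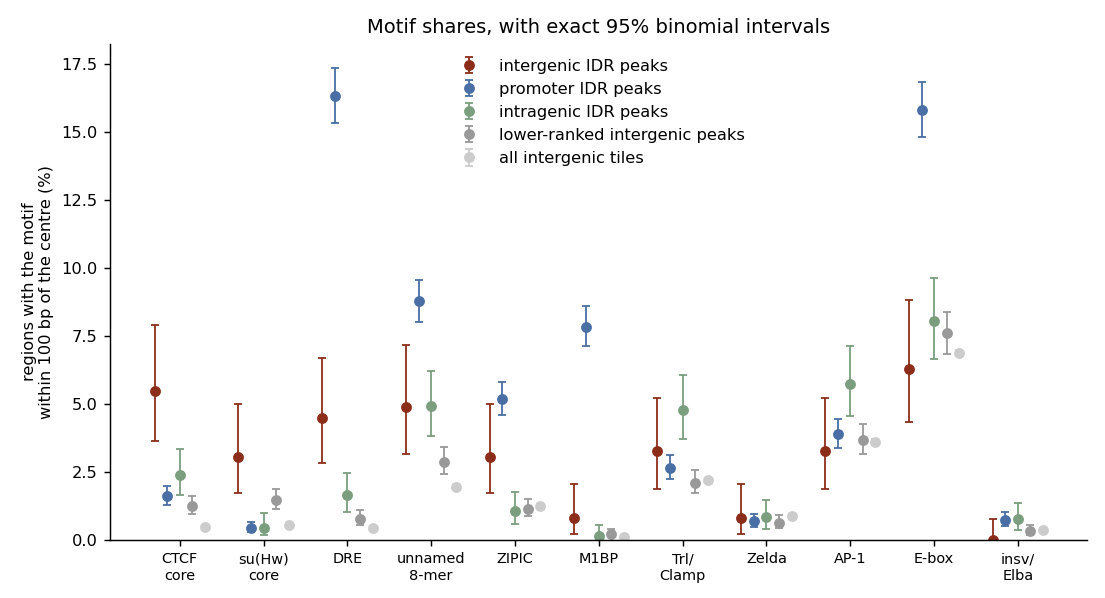
Share of regions with each motif within 100 bp of the centre, for intergenic, promoter and intragenic IDR peaks, lower-ranked intergenic peaks and all intergenic tiles, with exact 95% binomial intervals (the frequent BEAF-32 unit, Pho core and TATA box are left out). Intergenic peaks lead for the CTCF core (5.49%) and the su(Hw) core (3.05%), and promoter peaks lead for the DRE (16.3%).

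**Figure D3:**
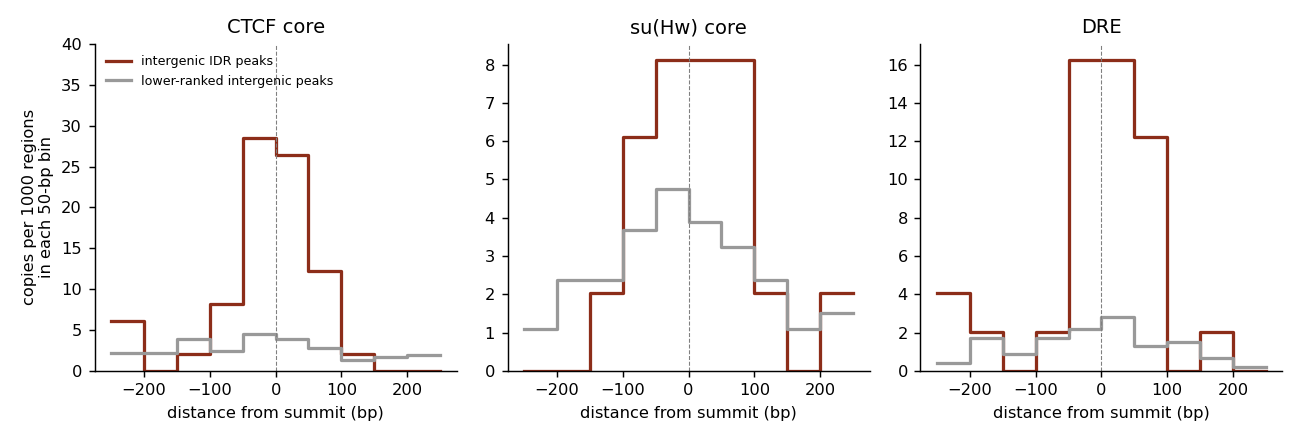
Copies of the CTCF core, the su(Hw) core and the DRE per 1000 regions in bins of 50 bp from 250 bp before to 250 bp after the summit, for intergenic and lower-ranked intergenic peaks; each panel has its own vertical scale. Copies gather near the summit, within 50 bp in 64.3% of CTCF core copies at intergenic peaks.

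A search over all 6-mers returned the same DRE letters without their being named. Of 1350 6-mers found in at least 10 of the 200 intergenic peaks on 2L, 2R and 4, the 20 with the largest share relative to lower-ranked intergenic peaks were taken to the 292 peaks on 3L, 3R and X. All 20 had a higher share there too, with a median ratio of 1.48. The ratios ran from 1.12 for ACTAGG to 2.63 for ATCGAT, with AGCCCT at 1.14 and ACTAGA at 1.18. How many of all 1350 had a ratio above 1 there was not counted, so the 20 have no background beside them. Several of the 20 also overlap in sequence. ATCGAT was at 12.3% of intergenic peaks on those other arms, against 4.69% of lower-ranked ones, and TATCGA at 16.1% against 6.75%. Of the others, CGATAG was at 7.53% against 3.46%, CGCTAG at 4.79% against 2.31%, and GCGCTA at 6.16% against 3.18%. ACCTAG had the largest ratio where the 6-mers were chosen, 4.26, and a ratio of 1.93 on the other arms, at 4.11% against 2.13%. The arms come from the same libraries, so they are not replicates. The sequence at intergenic peaks was AT-rich, with a median GC content of 35.8% in the 201 bases around the summit. The median was the same at intragenic peaks, 35.8%. It was 36.8% at promoter peaks, 39.8% at lower-ranked intergenic peaks and 40.8% in the tiles. Repeat-masked letters made up a mean of 21.2% of the sequence at intergenic peaks and 21.6% at intragenic peaks. The mean was 19.7% at promoter peaks, 18.9% at lower-ranked intergenic peaks and 26.8% in the tiles. By medians the masked share was 19.4% at intergenic peaks, 20.9% at intragenic peaks and 17.9% in the tiles. Only 3 intergenic summits (0.61%) lay in an annotated transposable element, against 62 (1.34%) of the lower-ranked ones.

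Intergenic IDR peaks lay nearer to genes than weaker intergenic peaks did. The median distance to a TSS was 2240 bp (quartiles 1132 and 4897), against 3398 bp for lower-ranked intergenic peaks and 5883 bp for the tiles. At more than 5000 bp from any TSS lay 120 intergenic peaks (24.4%), against 36.4% of the lower-ranked ones. The farthest was a peak between IntS3 and Gprk1, 42323 bp away, with relative signals of 0.692, 0.286 and 0.581. Next came a peak between vvl, a POU-domain gene, and lncRNA:CR45115 at 33755 bp, with 0.306, 0.740 and 0.896, and a peak between NijA and CG43245 at 32895 bp, with 0.468, 0.628 and 0.311. All 3 were weaker than the median IDR peak in every replicate. Within the intergenic set, the strongest 123 peaks had a median distance of 1600 bp. The rank correlation of signal with distance was weak over the set (Spearman rho -0.13 over 492 peaks that share their libraries).

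Intergenic IDR peaks also lay near gene 3' ends more often than weaker ones. The gaps between genes that held intergenic IDR peaks were shorter, with a median length of 8118.5 bp. Gaps had a median of 12215 bp for lower-ranked intergenic peaks and 20226 bp for tiles. Distances to starts and to 3' ends were not compared at equal gap length, so a part of gap length in either was not tested. The summit lay within 500 bp of the 3' end of a transcript at 99 intergenic peaks (20.1%, interval 16.7 to 23.9%), against 9.45% of lower-ranked intergenic peaks and 6.24% of tiles. Among the strongest 123 the share was 31.7%. In the replicates' own lists it was 22.3%, 23.6% and 19.5% of the strongest intergenic summits, against 8.63%, 10.2% and 9.61% of the weaker ones (difference 12.3 ± 2.10 percentage points, n = 3; exact sign-flip p = 0.25; a measure chosen after the data were seen). The 99 peaks had median relative signals of 0.925, 0.805 and 0.877, against 0.706, 0.629 and 0.757 for the other 393. They held the CTCF core at 11.1% and the DRE at 10.1%, against 4.07% and 3.05% of the others. Named cases besides sn and RpL17 are the peak 60 bp beyond DCX-EMAP, with 6.09, 5.77 and 6.97, the peak 85 bp beyond CG1941, and the peak 160 bp beyond RhoL in the 377 bp between phu and RhoL, with 1.98, 1.72 and 2.00.

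Of the 99, 49 lay between convergent genes, whose 3' ends face each other, and 50 between genes read in the same direction. Over all 492 the genes on either side were convergent for 24.2%, in tandem for 48.8% and divergent for 27.0%, against 24.3%, 50.9% and 24.8% of lower-ranked intergenic peaks. Tiles had 25.6%, 50.3% and 20.4%. The divergent share of intergenic peaks (exact 95% interval 23.2 to 31.2%) was above that of the tiles, and the interval holds that of the lower-ranked peaks. The nearest coding TSS had an IDR summit within 500 bp for 112 intergenic peaks (22.8%, interval 19.1 to 26.7%), against 16.4% of lower-ranked intergenic peaks and 15.1% of tiles.

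**Figure D4:**
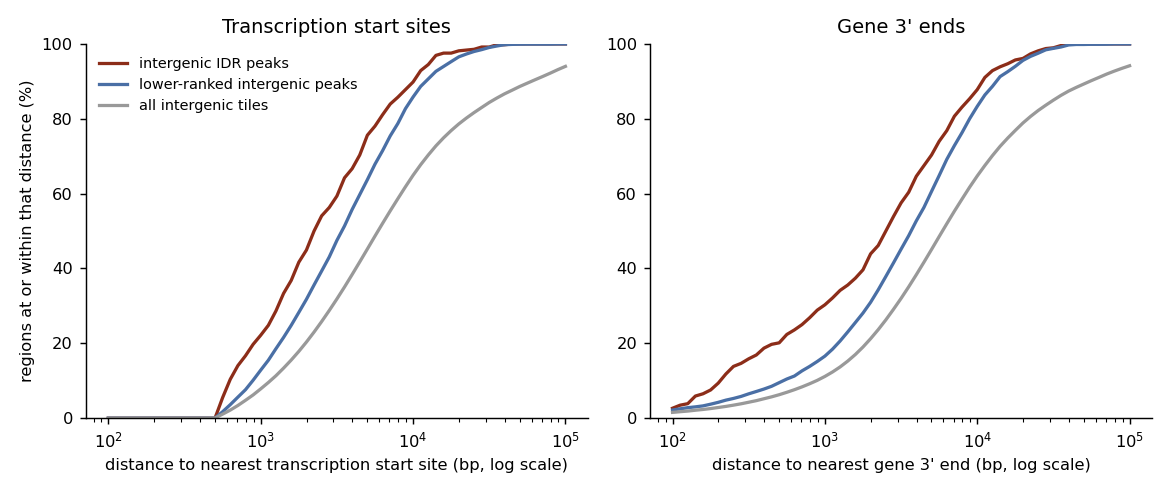
Cumulative percentage of intergenic IDR peaks, lower-ranked intergenic peaks and intergenic tiles by distance to the nearest transcription start site (left) and the nearest gene 3' end (right), on log axes; no region lies within 500 bp of a start site because of how intergenic was defined. Intergenic IDR peaks lie to the left, with 20.1% within 500 bp of a 3' end, against 9.45% and 6.24%.

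By arm, 3L held 150 intergenic peaks (30.5%), 2L 108, 3R 87, 2R 83, X 55 and chromosome 4 held 9. Per megabase of intergenic sequence that met the rule there were 16.5 on 3L, 16.1 on 2L, 11.3 on 3R, 11.1 on 2R and 10.4 on X. Lower-ranked intergenic peaks were densest on 2L and 3L, at 154.2 and 147.0 per megabase. They were at 130.2 on 3R, 122.3 on chromosome 4, 99.0 on X and 93.9 on 2R. On chromosome 4 the density of intergenic IDR peaks was 36.7. Of the 39 IDR and lower-ranked intergenic summits there, 9 were in the IDR list (23.1%, interval 11.1 to 39.3%), against 8.01 to 10.6% on the other arms. Besides Sox102F, the chromosome 4 peaks lay beside RpS3A, zfh2, myo and ey, the eye selector gene, toy, its paralogue, and lncRNA:CR43437. The strongest of 2 beside RpS3A had 2.13, 1.91 and 2.14.

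Intergenic peaks were spread over 380 gaps between genes, of which 300 held 1 peak, 60 held 2 and 20 held 3 to 5. Another intergenic IDR peak lay within 1000 bp of 51 of them (10.4%) and within 10000 bp of 199 (40.4%). Any other IDR peak lay within 10000 bp of 345 (70.1%). These shares were not computed for another set, so whether they exceed what peak density alone gives was not tested. For 20 intergenic peaks the peak interval also held the summit of another intergenic peak. The fullest gaps held 5 peaks each and were all on 3L, between NijA and CG43245, between lncRNA:CR44363 and CG7560, and between scyl, a gene that restrains TOR signalling, and lncRNA:CR44720. The last 2 lie in the 500 kb bin with the most intergenic peaks, chr3L:11000001-11500000, which held 22 of them beside 128 lower-ranked ones. Its median relative signals were 0.655, 0.576 and 0.863 in replicates 1, 2 and 4, against 0.727, 0.666 and 0.771 for all intergenic peaks. Overlap between summits was limited: a stronger pooled summit lay within 400 bp of 24 intergenic peaks (4.88%), against 13% of the whole IDR list.

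For homeobox and segmentation genes, the share of intergenic peaks with a listed nearest gene was close to that of lower-ranked intergenic peaks. The developmental lists are short, and many developmental genes are in none of them. The nearest gene was in the list of homeobox and segmentation genes for 7 peaks (1.42%), against 1.41% of lower-ranked intergenic peaks, and these were slp1, slp2, Ubx, ems, oc, en and wg. Of ligands and receptors of the Notch, Wnt, Dpp and EGFR pathways, fz, fz2, vn and wg were nearest to 1 peak each, 4 in all (0.813%, against 0.606%). The 20 genes of a list of Sox and forkhead genes were nearest to 10 peaks (2.03%, against 0.887%), led by Sox102F; the list leaves out the forkhead genes CHES-1-like, bin and croc. The peaks between slp1 and slp2 had 1.44, 0.987 and 2.10 for the stronger and 0.865, 0.927 and 1.09 for the weaker. Ribosomal protein genes were nearest to 5 peaks (1.02%, against 0.281% of lower-ranked intergenic peaks and 0.638% of tiles). These were RpL17, RpS23, RpS15Aa, RpLP0 and RpL38. The peak 132 bp from RpS23 had 2.06, 1.91 and 2.46. tRNA genes were nearest to 10 peaks (2.03%, against 1.43%). No intergenic peak had an insulator protein gene or a listed neuropeptide or receptor gene as its nearest gene (0 of 492, which allows up to 0.61% by 3 counts and 0.747% by the exact interval), against 0 and 4 of the 4623 lower-ranked ones. The lists were drawn up with results of these data known, and the counts are small.

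In the bithorax complex, between Ubx and Abd-B, 3 intergenic peaks lay in the same gap, between Glut3 and lncRNA:CR45750. The strongest, with its summit at 3R 16798580, had 2.28, 1.82 and 2.46. One 250 bp away had 1.01, 0.417 and 0.909 and held the su(Hw) core, and the third had 0.671, 0.611 and 0.432. In the Antennapedia complex, between lab and Antp, there was no intergenic IDR peak.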

How the data were processed

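Peak lists of 3 replicates, a pooled relaxed list and an optimal IDR list on dm6 were used; the dm3 lists were not used. Column 7 of each list is the signal deposited by the authors, and the deposited −log10 q entered no test (91.9% of IDR peaks shared its maximum). Per the labels, chromatin was sonicated; for aligner, caller, versions and the cutoff of IDR: not given in the sources used here. Library depth is unknown, so no precision is derived from it. Annotation was Ensembl release 115 and sequence the RefSeq copy of the same assembly. Peak and replicate coordinates fitted within its arms.

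With Python 3.11.15, numpy 2.4.6, pandas 2.3.3 and scipy 1.17.1, summits were matched within 100 bp, motifs were counted within 100 bp on both strands, and exact sign-flip tests were run over 3 replicates; the steps were tested on simulated data. Members, lists and motifs were chosen with earlier results of these data known. Named peaks were the 20 strongest, the 3 weakest, the 5 on either side of the limit, the 3 farthest from a TSS, those in the Hox complexes, those with most copies of a motif and the fullest gaps; peaks of the gene lists, with 2 CTCF cores, near 3' ends and on chromosome 4 were named after their values were seen. Alternatives changed the TSS distance, match distance, window, annotation, list length and replicates.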

Additional observations from a re-analysis of the deposited data

How the results depend on the processing

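The number of intergenic peaks was 939 with a limit of 200 bp and 153 in the stronger 50% of the IDR list; it stayed within 1.5 times of 492 under the other limit, annotation and neighbour settings. The share recovered in all replicates was 34.6% with matches within 50 bp, 17.9% with 50% as many replicate summits, 88.0% with whole lists, 91.5% in the stronger 50%, and 54.3 to 67.5% without 1 replicate. Recovery against promoter peaks changed sign, to 0.26 points with whole lists and 0.0214 points in the stronger 50%. Against intragenic peaks it was 0.848 points, -0.50 with matches within 200 bp, 2.90 within 50 bp, 5.24 with 50% as many summits, 2.79 with 1 peak per gap, 0.217 in the stronger 50% and -0.28 to 2.50 without 1 replicate. The signal difference from promoter peaks kept its sign under every setting run, and was -0.69 on the log2 scale and -0.31 in the stronger 50%. The DRE share was 7.84% and the 3L share 26.1% in the stronger 50%, and the su(Hw) share 1.63% in a 50 bp window, against 0.844% of lower-ranked intergenic peaks. In the replicates' own lists the difference between strongest and weaker summits changed sign for CAGCTG (0.591 points, 50 bp window), for GAGAGAG (-0.30 with the 50 bp window, -0.066 beyond 1000 bp and -0.33 with 50% as many summits), for CCAATTGG (0.052, 200 bp window) and for TGANTCA (-0.16 to 0.25 without 1 replicate, -0.0314 with 50% as many summits). The 3 motifs described at length kept theirs. Keeping 1 peak per gap, or leaving out 3L, was tried after seeing the data and left the CTCF share at 6.84% and 7.02%. The sign-flip tests used differences within each replicate; all libraries form 1 group, so there was no replicate block to add. With 3 libraries that test cannot give a p below 0.25, and unknown depth limits what the weakest peaks show.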
